A study of Homo sapiens with 6 samples.

Results

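Homologous recombination copies an intact sister sequence to mend a broken chromosome, and the Fanconi anaemia pathway unhooks crosslinks that tie both strands together, handing the resulting break to recombination. The kinases ATM and ATR detect damaged DNA, nucleases trim the broken ends, the BRCA1, BARD1, PALB2 and BRCA2 proteins place the recombinase on the trimmed strand, and helicases and nucleases take the joined molecules apart. In the Fanconi branch a core ubiquitin ligase, with the enzyme UBE2T, marks the FANCD2-FANCI clamp. Most of these genes are transcribed at higher levels in cycling cells than in resting ones.

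The genes described here are 40 listed members of these pathways, all 40 found by symbol in the deposited expression table and joined by gene identifier to the 60504 genes of the count table. RNA sequencing was done on HepG2, an established human liver carcinoma line, grown adherent in DMEM on multi-well plates. The 3 oridonin libraries came from cells given 10 µM oridonin, a diterpenoid from the herb Isodon rubescens, for 48 h, and the 3 DMSO libraries from cells given 0.1% DMSO for 48 h. The labels do not state whether the oridonin wells also held DMSO, and they name no separate cultures. The p-values therefore measure only the spread between these libraries, which may be technical.

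Total counts ran from 22250202 in DMSO 1 to 30739574 in oridonin 1, and 15116 genes passed the low-count filter. All 40 members passed, with 72 to 2949 counts per library and at least 1 CPM (counts scaled by TMM to a common depth) in every library. Summed over 15 hepatocyte genes, the DMSO libraries held 28860 to 32020 CPM and the oridonin libraries 16990 to 19180 CPM. Among 16 marker genes of other cell types, the defining immune genes PTPRC and CD3E had 0 to 3 counts per library, CD68 had 0 to 1, HBB 0 to 2, DCN 0 to 6 and KRT7 2 to 5. EPCAM and PDGFRB made up most of that list's summed level of 216 to 218 CPM of total counts in DMSO and 170 to 180 CPM in oridonin. Of the 9 markers tested, 4 were lower and 3 higher with oridonin, against 21.3% and 20.6% of all tested genes. The part of these markers in the members' values was not tested.

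Most members were lower with oridonin. By edgeR's quasi-likelihood test at an adjusted p under 0.05, 27 of the 40 members fell, against 21.3% of all tested genes, and 1 rose, against 20.6% of all tested genes. The remaining 12 did not pass the test. The member that rose was the kinase gene ATR. The groups did not overlap, with every oridonin library below every DMSO library, in 27 members, against 25.6% of all tested genes, and in the opposite order in 1 member, against 26.0%. The median log2 fold change of the members was -0.41, with 36 of 40 below 0, beside a median of 0.01 for all tested genes.

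The changes were moderate. Log2 fold changes of single members ran from -0.91 for EXO1 to 0.27 for ATR, and 0 members changed 2-fold or more. A decrease of at least 0.5 on the log2 scale was seen in 13 members. Summed over the members, the level was 1372, 1283 and 1204 CPM in the DMSO libraries and 1014, 1046 and 996.6 CPM in the oridonin libraries. In bulk RNA, fewer cells that express these genes and less RNA per cell cannot be told apart. Counts scaled by library totals only gave 25 members lower and 3 higher, where 15.6% of all tested genes were called lower and 29.7% higher. That scaling moved the share of upward calls among all genes from 49.2% to 65.5%, and the median of all genes was then 0.09.

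**Figure D1:**
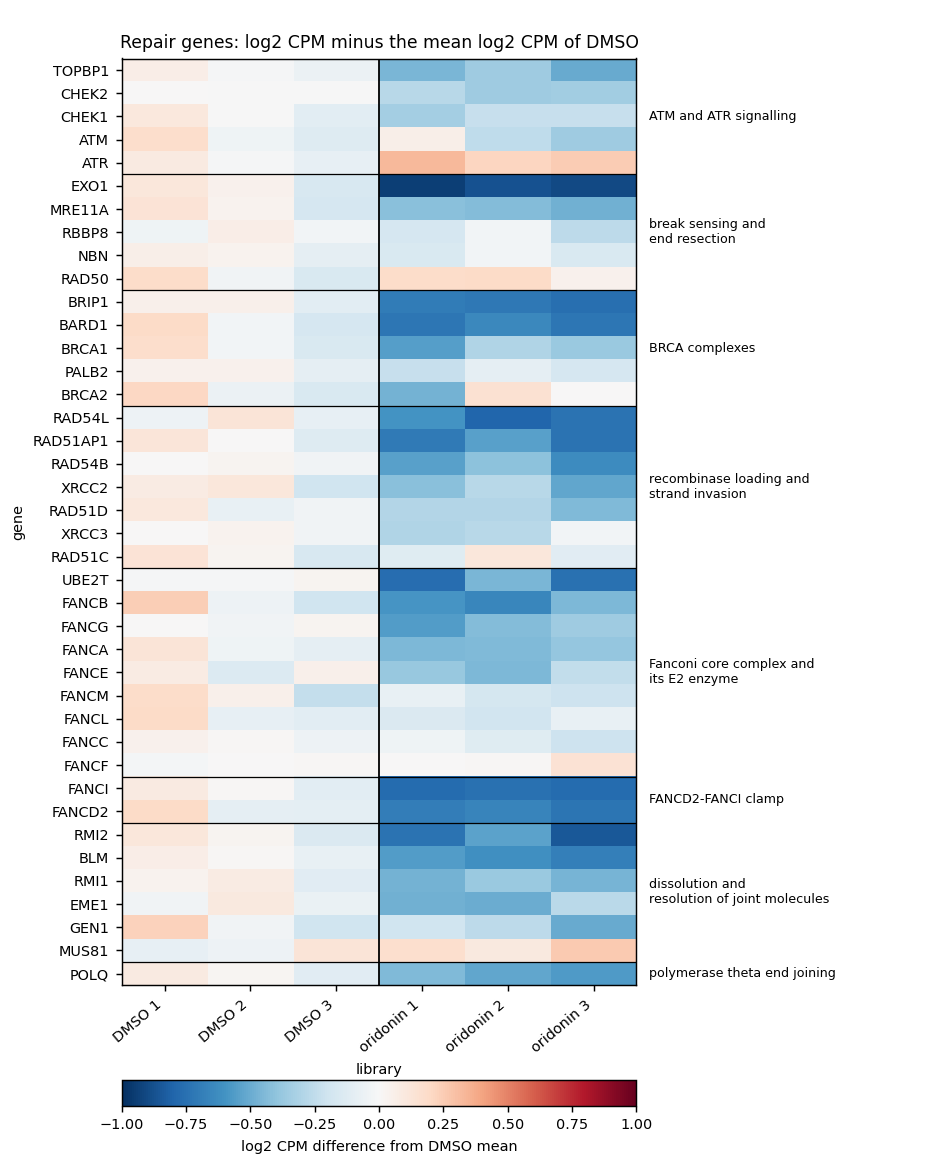
Level of each of the 40 members in each of the 6 libraries, as log2 CPM minus the mean of the 3 DMSO libraries, with members ordered by role. The oridonin columns are lower in most rows, and the ATR row is the one called higher.

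**Figure D2:**
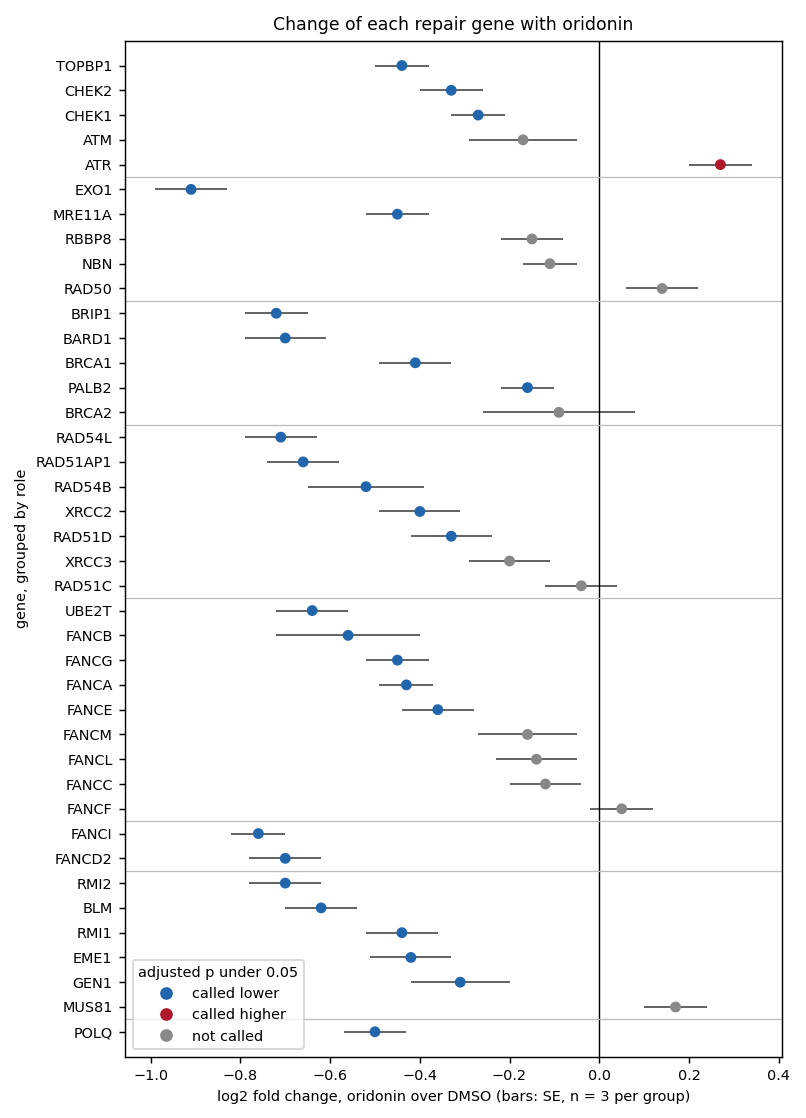
Log2 fold change of each member, oridonin against DMSO, as points with standard errors of the edgeR fit on 3 libraries per group, ordered by role. Values run from -0.91 for EXO1 to 0.27 for ATR, and the 12 members that did not pass the test lie between -0.20 and 0.17.

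The DMSO libraries were not alike for these genes. DMSO 1 held the highest of the 3 DMSO values in 28 of 40 members, and DMSO 3 held the lowest in 32. The median member lay 0.09 above its DMSO mean on the log2 scale in DMSO 1 and 0.10 below it in DMSO 3, while the median over all tested genes was 0.00 in both. The corresponding medians in the oridonin libraries were -0.02, 0.02 and -0.03. The order of the DMSO libraries was not particular to the members. Summed levels in DMSO 1, 2 and 3 were 3035, 2904 and 2840 CPM for S phase markers and 3262, 3206 and 3037 CPM for mitosis markers. The hepatocyte genes, at 32020, 30490 and 28860 CPM, had the same order. Summed end joining genes (2185, 2112 and 2027 CPM) and ATR checkpoint partners (529.0, 521.4 and 495.1 CPM) also had the falling order. Nucleotide excision genes had it narrowly, at 1376, 1360 and 1359 CPM. It was absent from other recombination and Fanconi genes, at 1424, 1425 and 1447 CPM, from base excision genes and from E2F, DREAM and MuvB factors. Without DMSO 1 the members' median log2 fold change was -0.35 with 25 lower and 2 higher, and without DMSO 3 it was -0.45 with 28 lower and 2 higher.

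Per unit of gene length, the members differed widely in level. UBE2T had the highest deposited level in DMSO, at a mean log2 FPKM of 4.94, followed by RMI2 at 4.13, RAD51AP1 at 3.70, TOPBP1 at 3.59 and CHEK1 at 3.31. At the lower end were ATR at 0.90, FANCM at 0.31, RAD51D at 0.28, FANCB at 0.18 and RAD54B at -0.20. Neighbours in that order were often indistinguishable, since the DMSO ranges overlapped in 31 of 39 neighbouring pairs. The median member stood at a log2 FPKM of 2.27 in DMSO, against 2.03 for all tested genes, and the median gene length was 6112 bases against 4420. On the linear scale UBE2T went from 30.7 to 19.9 FPKM and RAD54B from 0.869 to 0.611 FPKM, so both ends of the range were lower with oridonin.

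**Figure D3:**
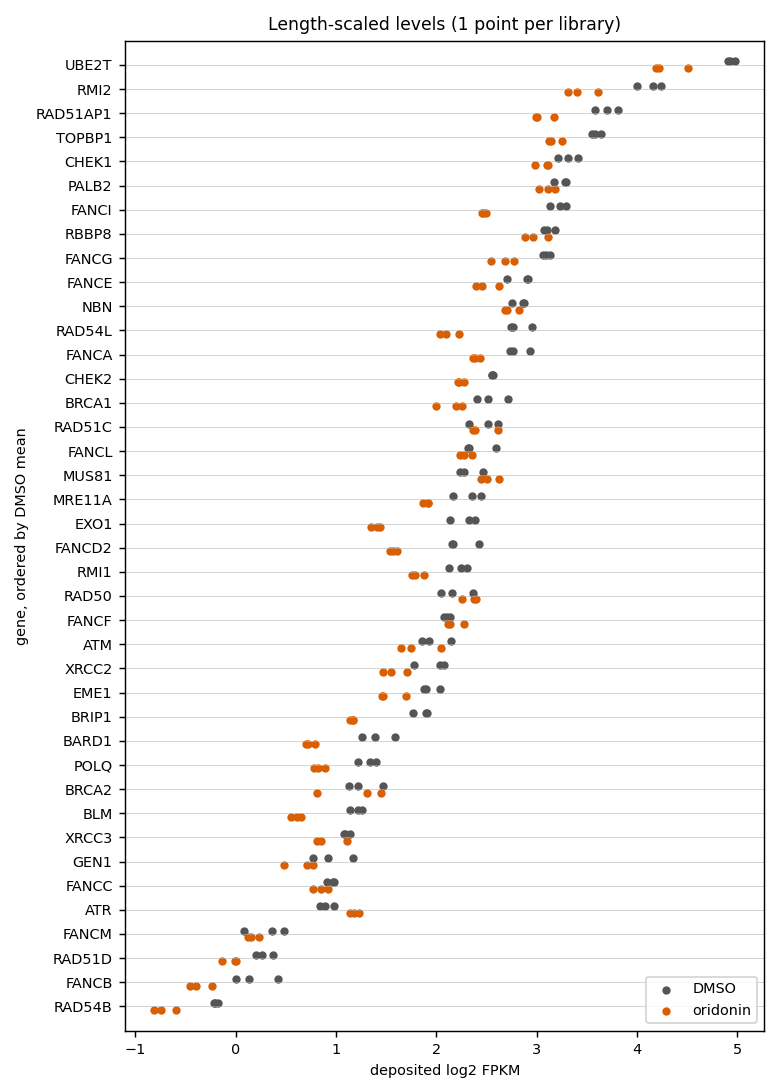
Deposited log2 FPKM of the 40 members in each library, ordered by their DMSO mean, with 1 point per library. UBE2T stands highest and RAD54B lowest, and most neighbours overlap.

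Damage signalling genes went both ways. ATR (hg38 chromosome 3, 142449235 to 142578826, minus strand) encodes the kinase that responds to single-stranded DNA at stalled forks. Its level was 25.1, 23.3 and 22.3 CPM in the DMSO libraries and 29.4, 27.3 and 28.0 CPM in the oridonin libraries. Each oridonin library lay above each DMSO library. ATR rose by a log2 fold change of 0.27 ± 0.07 (SE, n = 3 per group, edgeR adjusted p = 0.00448), or 20.3%. The call was made in each of 13 other settings of the processing, at log2 fold changes of 0.23 to 0.35.

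The partners of ATR among the members fell. TOPBP1, the scaffold that activates ATR, stood at 82.7, 78.5 and 76.0 CPM in DMSO and 57.7, 61.7 and 55.9 CPM in oridonin, a log2 fold change of -0.44 ± 0.06 (SE, adjusted p = 9.81e-06). CHEK1, the checkpoint kinase that ATR phosphorylates, stood at 70.6, 65.5 and 60.8 CPM in DMSO and 51.8, 55.8 and 55.9 CPM in oridonin, a log2 fold change of -0.27 ± 0.06 (SE, adjusted p = 0.00224). Neither gene's groups overlapped. CHEK2, the checkpoint kinase downstream of ATM, was nearly constant in DMSO at 24.6, 24.4 and 24.5 CPM and fell to 20.2, 19.1 and 19.2 CPM, with a log2 fold change of -0.33 ± 0.07 (SE, adjusted p = 0.000716). ATM, the kinase that responds to double-strand breaks, ran from 81.0 to 100.2 CPM in DMSO and from 69.3 to 92.6 CPM in oridonin, and the ranges overlapped. Its log2 fold change of -0.17 ± 0.12 (SE) did not pass the test (adjusted p = 0.272), but it was -0.31 without oridonin 1 (adjusted p = 0.00763), whose ATM value was the highest of the 3.

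Of the 5 genes of break sensing and end trimming, 2 fell, against 21.3% of all tested genes. With so few genes the count is a description only. EXO1 (hg38 chromosome 1, 241847967 to 241895148, plus strand), the exonuclease of long-range resection, was at 22.0, 21.0 and 18.2 CPM in DMSO and 10.6, 11.1 and 10.9 CPM in oridonin. The lowest DMSO library was far above the highest oridonin library. EXO1 fell by 46.6%, a log2 fold change of -0.91 ± 0.08 (SE, adjusted p = 2.4e-07), the largest decrease among the members. RBBP8, also called CtIP, which starts the trimming, was at 43.2, 46.6 and 43.6 CPM in DMSO and 39.6, 43.6 and 37.1 CPM in oridonin, with overlapping groups and no call (-0.15 ± 0.07, adjusted p = 0.0848). Without oridonin 2 it was called, at -0.21 (adjusted p = 0.0256).

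The 3 subunits of the MRE11-RAD50-NBN complex, which holds and processes broken ends, had unequal values. MRE11A (the nuclease, now named MRE11) fell from 42.6, 39.7 and 34.6 CPM in DMSO to 29.1, 28.8 and 27.8 CPM in oridonin, a log2 fold change of -0.45 ± 0.07 (SE, adjusted p = 0.000107). RAD50, the ATPase subunit, was at 51.2, 43.9 and 40.4 CPM in DMSO and 51.0, 51.4 and 46.2 CPM in oridonin, overlapping and not called (0.14 ± 0.08, adjusted p = 0.172). NBN, the subunit that recruits ATM, was at 45.7, 44.9 and 41.3 CPM in DMSO and 39.4, 43.1 and 39.6 CPM in oridonin, also overlapping and not called (-0.11 ± 0.06, adjusted p = 0.177). The RAD50 log2 fold change was 0.23 without DMSO 1, its highest DMSO library (adjusted p = 0.0178), and 0.06 without DMSO 3, its lowest (adjusted p = 0.502). With all libraries kept, RAD50 was called with total-count scaling, at 0.22 (adjusted p = 0.0431), and with a replicate block, at 0.14 (adjusted p = 0.0219).

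Of the 5 BRCA complex genes, 4 fell, against 21.3% of all tested genes, though 1 call was weak. BRIP1 (hg38 chromosome 17, 61681266 to 61863521, minus strand), the helicase that binds BRCA1, had the lowest log2 fold change of the group. It was at 30.4, 30.3 and 27.2 CPM in DMSO and 18.0, 17.9 and 17.4 CPM in oridonin, and fell by 39.3% (log2 fold change -0.72 ± 0.07, SE, adjusted p = 3.13e-07). The spread within each group was small beside the distance between them.

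BARD1, the obligate partner of BRCA1 in a ubiquitin ligase, was at 18.6, 16.0 and 14.5 CPM in DMSO and 9.86, 10.4 and 9.86 CPM in oridonin (log2 fold change -0.70 ± 0.09, SE, adjusted p = 1.5e-05). BRCA1 itself was at 59.4, 51.4 and 47.2 CPM in DMSO and 35.9, 42.5 and 40.4 CPM in oridonin (-0.41 ± 0.08, adjusted p = 0.00127). Both groups of both genes were separate. PALB2, which links BRCA1 to BRCA2, was at 46.7, 46.9 and 42.7 CPM in DMSO and 38.7, 42.6 and 40.4 CPM in oridonin, where the nearest libraries of the groups almost touched. Its call (-0.16 ± 0.06, adjusted p = 0.045) was lost in 9 of 13 other settings, with adjusted p from 0.00761 to 0.314 over all 13, and when any of DMSO 1, DMSO 2, oridonin 1 or oridonin 3 was left out. BRCA2, which carries the recombinase to DNA, did not pass the test. Its values were 34.6, 28.8 and 26.9 CPM in DMSO and 21.6, 33.2 and 30.0 CPM in oridonin, so that oridonin 1 lay below all other libraries and the other two lay within the DMSO range. The log2 fold change of -0.09 ± 0.17 (SE, adjusted p = 0.723) was 0.08 without oridonin 1.

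Genes of recombinase loading and strand invasion fell in 5 of 7 cases, against 21.3% of all tested genes. RAD54L, a motor protein that drives strand exchange, was at 22.0, 24.9 and 21.5 CPM in DMSO and 15.1, 13.2 and 13.7 CPM in oridonin (log2 fold change -0.71 ± 0.08, SE, adjusted p = 2.67e-06). RAD51AP1, which stimulates strand invasion, was at 36.4, 33.5 and 30.6 CPM in DMSO and 20.5, 22.9 and 20.1 CPM in oridonin (-0.66 ± 0.08, adjusted p = 2.81e-06). The groups of both genes lay well apart. RAD54B, the paralog of RAD54L and the lowest member in log2 FPKM, averaged 5.04 ± 0.101 CPM with DMSO against 3.50 ± 0.272 CPM with oridonin (SD over 3 libraries), and its fold change of -0.52 ± 0.13 on the log2 scale passed the test (SE, adjusted p = 0.00299).

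The recombinase paralogs, which stabilise the protein filament, were split. XRCC2 was at 20.2, 20.6 and 16.6 CPM in DMSO and 14.3, 15.8 and 13.3 CPM in oridonin (-0.40 ± 0.09, adjusted p = 0.00201). RAD51D, its direct partner, was at 14.8, 13.1 and 13.5 CPM in DMSO and 11.3, 11.3 and 10.2 CPM in oridonin (-0.33 ± 0.09, adjusted p = 0.00506), and was not called from the deposited log2 FPKM values with limma (adjusted p = 0.0674). Both fell with no overlap. RAD51C, the paralog that sits in both paralog complexes, was at 37.5, 34.8 and 30.5 CPM in DMSO and 31.4, 36.8 and 31.5 CPM in oridonin, with a log2 fold change of -0.04 ± 0.08 (SE, adjusted p = 0.729). XRCC3, which pairs with RAD51C, was at 16.3, 16.7 and 15.8 CPM in DMSO and 13.2, 13.4 and 16.0 CPM in oridonin (-0.20 ± 0.09, adjusted p = 0.0754). Without oridonin 3, which alone reached the DMSO range, XRCC3 was called at -0.29 (adjusted p = 0.0145). Its exons share 76.7% of their bases with KLC1 on the opposite strand, and KLC1 was called higher at 0.36. Whether counting used strand is not given in the sources used here, so reads of the overlapping genes cannot be told apart.

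Of the 9 genes of the Fanconi core complex and its E2 enzyme, 5 fell, against 21.3% of all tested genes. UBE2T, the E2 enzyme that delivers ubiquitin to the clamp, was at 32.6, 32.7 and 33.6 CPM in DMSO and 19.5, 24.1 and 19.7 CPM in oridonin. The DMSO libraries were close together and all lay above oridonin 2, the highest oridonin library. UBE2T fell by 36.0% (log2 fold change -0.64 ± 0.08, SE, adjusted p = 4.83e-06).

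FANCG, a scaffold subunit, was at 31.2, 30.4 and 31.7 CPM in DMSO and 21.1, 23.0 and 24.3 CPM in oridonin (-0.45 ± 0.07, adjusted p = 5.17e-05). FANCA, its binding partner, was at 75.0, 66.5 and 64.6 CPM in DMSO and 50.3, 50.5 and 52.3 CPM in oridonin (-0.43 ± 0.06, adjusted p = 2.74e-05). In both, every oridonin library was below every DMSO library. FANCE, which binds FANCD2, went from 18.4 ± 1.45 to 14.4 ± 1.07 CPM (SD, n = 3; -0.36 ± 0.08, SE, adjusted p = 0.00249). FANCB, a subunit of the catalytic module encoded on the X chromosome, went from 3.71 ± 0.598 to 2.49 ± 0.183 CPM (SD, n = 3; -0.56 ± 0.16, SE, adjusted p = 0.00796).

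The other four core genes did not pass the test, among them the catalytic subunit. FANCL, the ubiquitin ligase itself, was at 14.8, 12.2 and 12.0 CPM in DMSO and 11.7, 11.3 and 12.3 CPM in oridonin (-0.14 ± 0.09, adjusted p = 0.252). FANCF, an adaptor subunit, was at 18.3, 18.6 and 18.7 CPM in DMSO and 18.6, 18.7 and 20.5 CPM in oridonin (0.05 ± 0.07, adjusted p = 0.594). For these genes the groups overlapped. FANCC, which binds FANCE and FANCF, had a log2 fold change of -0.12 ± 0.08 (SE, adjusted p = 0.234), with 14.9 to 15.9 CPM in DMSO and 13.3 to 15.0 CPM in oridonin. FANCM, the translocase that recruits the core complex, had one of -0.16 ± 0.11 (SE, adjusted p = 0.258), with 8.91 to 12.0 CPM in DMSO and 9.11 to 9.98 CPM in oridonin. Without DMSO 3, its lowest library, FANCM was called at -0.27 (adjusted p = 0.0327).

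Both genes of the clamp that the core complex marks fell, against 21.3% of all tested genes. FANCD2 (hg38 chromosome 3, 10026414 to 10101930, plus strand) was at 45.8, 37.7 and 37.6 CPM in DMSO and 24.9, 25.4 and 24.2 CPM in oridonin (log2 fold change -0.70 ± 0.08, SE, adjusted p = 1.5e-06). FANCI (hg38 chromosome 15, 89243949 to 89317261, plus strand) was at 77.3, 73.5 and 67.8 CPM in DMSO and 42.8, 43.3 and 42.6 CPM in oridonin, and fell by 41.1% (-0.76 ± 0.06, adjusted p = 2.54e-08). For both genes the 3 oridonin libraries lay within a narrow band far below the DMSO libraries. The log2 ratio of FANCD2 to FANCI counts ran from -0.96 to -0.76 in DMSO and from -0.82 to -0.77 in oridonin, and differed by 0.07 (exact permutation test, two-sided p = 0.4).

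Promoter sequence was read for 36 of the 40 members from the RefSeq table of GRCh38.p14, which gives 250 bases before to 50 bases after each start. FANCI, RMI2, NBN and RAD54B were not matched. BLM, BRIP1 and UBE2T are shown because they fell and hold several CCAAT boxes, the element bound by NF-Y. FANCD2 and XRCC2 are shown because they fell and hold the E2F motif, and FANCC and FANCF because they hold the same motifs and did not pass the test. Several CCAAT boxes also lie in members not shown. Of these, CHEK1, CHEK2, MRE11A, RAD54L and RMI1 fell, and XRCC3, ATM and FANCM did not pass the test. XRCC3 holds more of them than any member shown. Each stretch of 30 bases is written 5′ to 3′ along the gene's strand, and capitals mark the motif, either as CCAAT or TTTCCCGC or as their reverse complements ATTGG and GCGGGAAA.
FANCD2, chr3:10026424-10026453, plus strand: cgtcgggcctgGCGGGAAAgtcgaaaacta
XRCC2, chr7:152676102-152676131, minus strand: tggcgttggtgGCGGGAAAgttgagtctct
FANCC, chr9:95317737-95317766, minus strand: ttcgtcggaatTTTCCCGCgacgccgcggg
BRIP1 distal, chr17:61863628-61863657, minus strand: tcggagacttccATTGGatgccgaagttct
BRIP1 middle, chr17:61863560-61863589, minus strand: ccttggcgggtgATTGGtcgagctcgctgg
BRIP1 proximal, chr17:61863539-61863568, minus strand: gctcgctgggctATTGGgcgctgggagtcg
UBE2T distal, chr1:202342043-202342072, minus strand: tcagagcactggCCAATagagaggagcggt
UBE2T proximal, chr1:202341992-202342021, minus strand: gattactgtgggCCAATcacaatcttcccc
BLM distal, chr15:90717193-90717222, plus strand: gtccggactctgATTGGgctttggagatac
BLM middle, chr15:90717288-90717317, plus strand: gagtgcgacagtATTGGtcggcttccccag
BLM proximal, chr15:90717313-90717342, plus strand: cccaggaagcagCCAATcggaataggcaag
FANCF distal, chr11:22625898-22625927, minus strand: catgcatttcgaCCAATagcattgcagaga
FANCF proximal, chr11:22625858-22625887, minus strand: ttcgcggatgttCCAATcagtacgcagaga

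Both strands were searched, and a gene was counted once whatever its number of start sites. CCAAT was found in 18 of the 36 members (50.0%), against 39.7% of 27305 genes with a promoter in the table, and in 13 of the 24 members that fell. The other members with CCAAT, none of which passed the test, were ATM, XRCC3, FANCF, FANCM and MUS81. The E2F motif TTTCCCGC was found in 3 members (8.33%), namely FANCD2, XRCC2 and FANCC, against 1.98% of all genes, and TTTGGCGC in 0 members, against 0.795%. Letters of the cell cycle homology region, the element bound by the MuvB complex, were found as TTTGAA in 5 members (13.9%, against 18.2%) and as TTCGAA in 1 member (2.78%, against 1.82%). The FANCF and FANCC stretches carry the same letters as those of members that fell. A match describes these letters in this window and is not a measured binding site.

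Of the 6 genes that dissolve or cut joint molecules, 5 fell, against 21.3% of all tested genes. BLM, the helicase mutated in Bloom syndrome, was at 15.9, 15.4 and 14.5 CPM in DMSO and 10.3, 9.96 and 9.50 CPM in oridonin (log2 fold change -0.62 ± 0.08, SE, adjusted p = 1.44e-05). RMI2, a scaffold of the dissolvasome that BLM forms, was at 51.7, 48.6 and 43.1 CPM in DMSO and 28.6, 32.9 and 26.5 CPM in oridonin (-0.70 ± 0.08, adjusted p = 7.77e-06). In both the groups were separate. RMI1, the other scaffold, fell from 16.6 ± 1.17 to 12.2 ± 0.481 CPM (SD, n = 3; -0.44 ± 0.08, SE, adjusted p = 0.000357).

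The nuclease subunits differed from each other. EME1, a partner of MUS81 in an active nuclease, was at 12.4, 13.6 and 12.1 CPM in DMSO and 9.14, 8.99 and 10.6 CPM in oridonin (-0.42 ± 0.09, adjusted p = 0.00174). MUS81, the catalytic subunit, was at 26.2, 26.8 and 30.4 CPM in DMSO and 31.1, 29.7 and 33.2 CPM in oridonin (0.17 ± 0.07, adjusted p = 0.0677). EME1 fell with separate groups, while the MUS81 groups overlapped through DMSO 3. MUS81 was called higher in 4 of 13 other settings, among them without DMSO 3, at 0.24 (adjusted p = 0.00879), with total-count scaling, at 0.25 (adjusted p = 0.00698), and without the low-count filter, at 0.19 (adjusted p = 0.0428). Its exons share 13.9% of their bases with CFL1 on the opposite strand, which had 478 CPM on average and was called at 0.14, and EME1 shares 16.4% with LRRC59, at 310 CPM.

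GEN1, a resolvase that cuts four-way junctions, was at 27.0, 22.6 and 20.2 CPM in DMSO and 20.1, 19.3 and 16.3 CPM in oridonin, so that DMSO 3 and oridonin 1 nearly coincided. It was called at -0.31 ± 0.11 (SE, adjusted p = 0.0274), a call lost in 5 of 13 other settings: -0.20 without DMSO 1 (adjusted p = 0.097), -0.34 without oridonin 2 (adjusted p = 0.0583), -0.23 without oridonin 3 (adjusted p = 0.0951), -0.24 with total-count scaling and -0.30 from log2 FPKM with limma. POLQ, the polymerase of an end-joining route that competes with recombination, was at 25.1, 23.9 and 21.9 CPM in DMSO and 17.4, 16.5 and 16.0 CPM in oridonin. It fell with no overlap (-0.50 ± 0.07, adjusted p = 3.92e-05).

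Proteins of one complex or one step are listed together, so 16 pairs of members were compared by the log2 ratio of their counts within each library, which does not depend on how libraries are scaled. The ranges of the groups did not overlap for 11 of the 16 pairs. The share among other pairs of genes was not computed, and for single genes the groups did not overlap in 25.6% downward and 26.0% upward, so the count is a description of these pairs only. With 3 libraries against 3 the smallest two-sided p of an exact permutation test is 0.1, and these 11 pairs reached it (Benjamini-Hochberg adjusted p = 0.145 over 16 pairs), so the design could not pass the threshold. The pairs were chosen with the counts already seen.

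Relative to its partners, ATR was higher in the oridonin libraries. The log2 ratio of ATR to TOPBP1 was -1.72, -1.75 and -1.77 in DMSO and -0.97, -1.18 and -0.99 in oridonin, a difference of 0.70, the largest of the pairs. The ratio of ATR to CHEK1 differed by 0.53 and that of ATR to ATM by 0.45, in each case with separate groups. Within the end-binding complex, RAD50 to MRE11A moved from 0.26, 0.14 and 0.22 to 0.81, 0.83 and 0.73, a difference of 0.58, and NBN to MRE11A by 0.33. The difference was 0.59 for MUS81 to EME1, 0.51 for FANCL to UBE2T, 0.29 for BRCA1 to BARD1, 0.27 for RMI1 to RMI2 and 0.25 for RAD50 to NBN. For BLM to RMI1 it was -0.18.

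Overlapping groups were seen for 5 pairs. By the exact test these were FANCD2 to FANCI, given above, RAD51D to XRCC2 (0.07, p = 0.7), BRCA2 to PALB2 (0.06, p = 0.8), RAD51C to XRCC3 (0.16, p = 0.4) and ATM to CHEK2 (0.14, p = 0.4). With 3 libraries per group such p-values do not show that the partners moved alike.

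**Figure D4:**
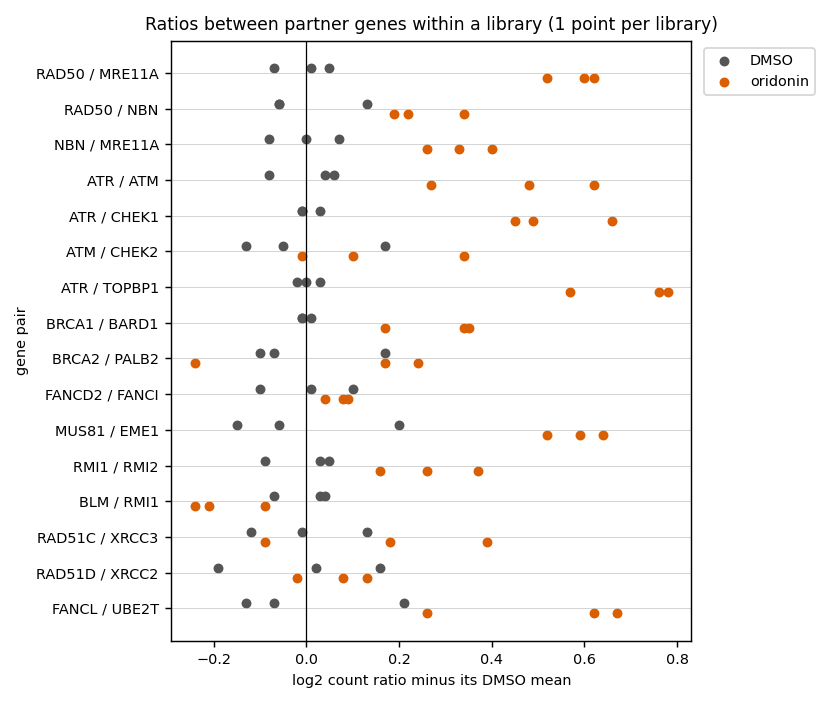
Log2 ratio of the counts of 16 pairs of members within each library, minus the pair's DMSO mean, with 1 point per library. The oridonin points of RAD50 to MRE11A, MUS81 to EME1 and the ATR pairs lie to the right of the DMSO points, and those of FANCD2 to FANCI lie among them.

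Some member values share reads with other sequence or could do so. Besides XRCC3, MUS81 and EME1, the share of exon bases that overlaps a gene on the opposite strand is 25.1% for RAD54L (with LRRC41), 23.6% for FANCA (ZNF276), 18.7% for FANCL (VRK2), 11.3% for FANCF (GAS2), 6.7% for CHEK2 (HSCB) and 5.9% for FANCI (POLG). POLG was called higher at 0.31 and GAS2 lower at -0.42. On the same strand, BRCA1 shares 1.31% of its exon bases with the lincRNA AC060780.1, called at -1.54, and CHEK1 shares 1.22% with STT3A, called at -0.29. CHEK2, FANCD2 and BRCA1 also have partial pseudogene copies, so their counts are uncertain as far as reads were divided among copies.

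Other genes of the same pathways, listed separately, had a median near that of all genes. Of 43 tested, 10 fell and 5 rose, against 21.3% and 20.6% of all tested genes, with a median log2 fold change of -0.03. USP1, which removes ubiquitin from the FANCD2-FANCI clamp, fell from 110.7 to 68.1 CPM (-0.70 ± 0.05, adjusted p = 2.6e-08), and MMS22L, which loads the recombinase at stalled forks, fell at -0.66. ERCC1, the partner of the nuclease that incises at crosslinks, rose from 46.4 to 85.1 CPM (0.87 ± 0.07, adjusted p = 1.88e-07). Among the other partners of ATR signalling, 7 of 13 fell and 0 rose (median -0.24), such as the adaptor CLSPN at -0.50, the kinase WEE1 at -0.51 and the fork protein TIMELESS at -0.33. For the count of 0, 1 gene had an unadjusted p under 0.05 in the upward direction with edgeR, and DESeq2 called 0.

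Other repair pathways had medians nearer to that of all genes. Over all tested genes, 21.3% were called lower and 20.6% higher, and the end joining list held a larger share of lower calls. End joining and TP53BP1 genes fell in 8 of 17 and rose in 3 (median -0.12), with the histone gene H2AX at -0.61, RIF1 at -0.28, the kinase gene PRKDC at -0.44 and the ligase gene LIG4 at 0.49. Nucleotide excision repair had 1 of 16 lower, CETN2 at -0.44, and 2 higher, GTF2H5 at 0.44 and ERCC3 at 0.28 (median 0.04). Base excision and single-strand break repair had 3 of 20 lower and 3 higher (median -0.02), with the uracil glycosylase UNG at -0.44, NEIL3 at -0.34, PARP1 at -0.12 and the endonuclease APEX2 at 0.36. The difference between these lists and the members was not tested.

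Genes of the dividing cell moved with the members. For comparison, 21.3% of all tested genes were called lower and 20.6% higher. Of 21 S phase and replication markers, 20 fell and 0 rose (median -0.54), and their summed level went from 2926 ± 99.7 to 2039 ± 48.3 CPM (SD, n = 3). All 20 mitosis markers fell (median -0.50), from a summed level of 3169 ± 117 to 2110 ± 43.3 CPM (SD, n = 3). Examples are the helicase subunits MCM3 at -0.69 and MCM2 at -0.65, RRM2 at -0.59, the proliferation antigen MKI67 at -0.91, TOP2A at -0.85 and CCNA2 at -0.72. Of 20 E2F, DREAM and MuvB factors, which control genes of the cell cycle, 13 fell and 0 rose (median -0.29), with MYBL2 at -0.67, E2F8 at -1.18 and LIN54 at -0.76. For the S phase and for the E2F counts of 0, edgeR gave 0 genes at an unadjusted p under 0.05 in the upward direction and DESeq2 called 0. The part of these genes' change in the members' values was not tested.

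**Figure D5:**
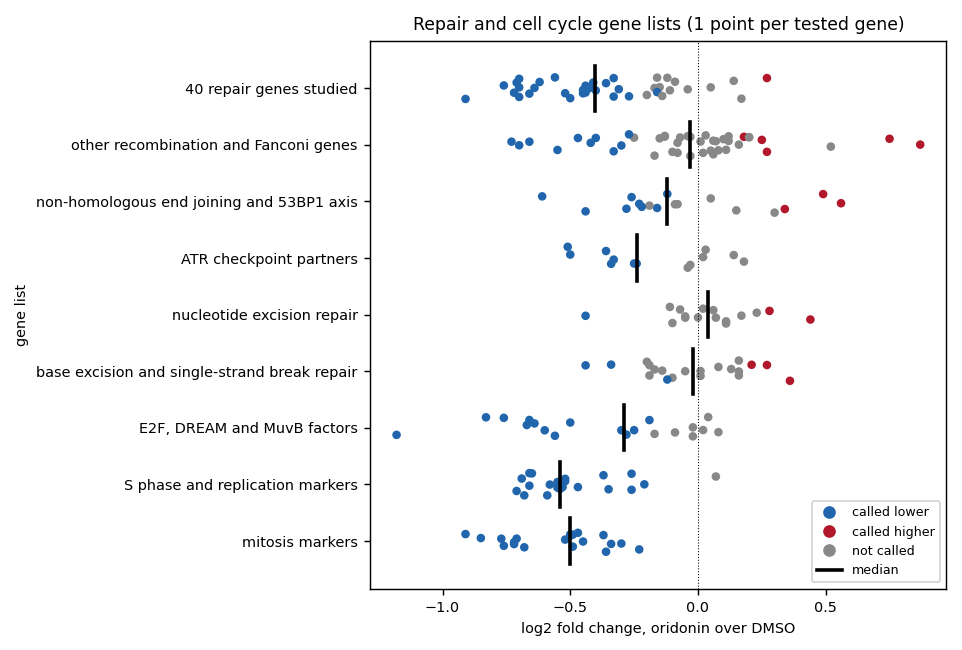
Log2 fold changes, oridonin against DMSO, of the tested genes of the members and of 8 other lists, with 1 point per gene and the median of each list marked. The members' median of -0.41 lies between those of the S phase list (-0.54) and the list of other recombination and Fanconi genes (-0.03).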

How the data were processed

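The authors deposited a table of raw read counts per gene and a table of log2 FPKM values for the same 6 libraries. The submitters' processing notes name hg38 and DESeq2 1.10.1. How reads were aligned and counted, and whether strand was used, is not given in the sources used here. The deposited log2 FPKM values were used only to compare levels between genes and as an alternative.

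Counts were filtered with filterByExpr (15116 of 60504 genes kept), scaled with TMM and tested with edgeR 4.0.16 (R 4.3.3; robust quasi-likelihood F-test, treatment as the only term, all 6 libraries, Benjamini-Hochberg over all tested genes, threshold 0.05). The fit was tested on simulated data first. Standard errors are the log2 fold change divided by the root of F. Libraries of a group differed by more than sampling noise. Alternatives were other scalings, filters, a replicate block, each library left out, DESeq2 1.42.0, and limma 3.58.1 on log2 FPKM. Pair ratios used exact permutation tests. Exon overlaps came from GENCODE annotation of the same build.

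The members and lists were chosen with earlier results of these data known. All tested members are named. In each other list the naming rule took 3 called genes by smallest p on the side holding most calls, plus the first on the opposite side. Some genes that this rule took are not reported here, and cell type markers are given by sums and counts. Counts bound precision through counting error and library spread only.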

Additional observations from a re-analysis of the deposited data

How the results depend on the processing

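Of the 28 members called, 25 kept direction and call in all 13 alternatives; PALB2, GEN1 and RAD51D lost the call in at least 1. Another 6 members, ATM, RAD50, RBBP8, XRCC3, FANCM and MUS81, were called in at least 1 alternative. The number of members called lower ran from 24 (limma on log2 FPKM) to 30, and was 25 to 28 when 1 library was left out. The number called higher was 1 in the reported fit, 3 with total-count scaling, 2 without the low-count filter and 1 to 2 when 1 library was left out; the members added were RAD50 and MUS81. Over all genes, 6332 were called, and 5282 to 6547 with 1 library left out. Libraries with the same replicate number correlated in their deviations at 0.194, 0.065 and 0.173, so the numbers were not taken as pairs, although each library correlated best with its own number. With the replicate block, 30 members were called lower and 3 higher (MUS81 at 0.17, adjusted p = 0.0102), and 7689 of all genes were called. BRCA2 and RAD51C, neither called, changed sign between settings, from -0.22 to 0.08 and from -0.12 to 0.04. The causes were not tested. The lowest member count in a library was 72, so counting error weighs most on FANCB and RAD54B.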
